A study of Mus musculus with 6 samples.

Results

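Trbv2 (written TRBV2 here, as V segments of the T-cell receptor beta locus usually are) lies on mouse chromosome 6 at positions 41047556 to 41047995 of GRCm38.p6, the assembly of mm10, in the RefSeq gene table. Its members were all listed rearrangements whose V call began with the TRBV2 family name, with any allele. They made up 295 of the 4238 distinct rearrangements and 780 of the 7043 templates in all. The segment was chosen by its template counts per rearrangement, so those counts are given below as a description, with no test against other V segments. The counts are called templates because their sums are of the size of template counts; the files do not say whether they count DNA templates or reads.

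The cells were splenic T follicular regulatory (Tfr) cells, obtained by sorting from 3 mice and labelled as CD4 T cells of genotype Foxp3GFP. There was 1 superior and 1 inferior sample from each animal, and the labels define neither word. All mice shared the Foxp3GFP genotype, in which green fluorescent protein reports Foxp3, and no untreated or other control group was among the samples; age, treatment and sorting gates were not given in the sources used here. Rearrangements were read from genomic DNA with the immunoSEQ kit for mouse TCRB, used at its survey depth, so marker genes could not be checked.

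Tfr cells are Foxp3-expressing T cells of the B-cell follicle that restrain germinal centre responses. A beta chain is made by joining a D to a J segment and then a V segment to that DJ, with bases trimmed and added at both joints. The V segment encodes the first and second complementarity-determining regions and the start of the third (CDR3), and the CDR3 spans the joints and touches the peptide. All cells of a clone carry the same rearrangement, and genomic DNA holds it in the same number of copies whatever its expression.

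The following rearrangements are shown because the results on clone size and on sharing turn on them. Each deposited sequence has 87 bases and ends before the last CDR3 residue; capitals mark the CDR3. The largest TRBV2 clonotype, here the DTWGS clone after residues 6 to 10 of its 15-residue CDR3, joined TRBJ2-7 and was found in mouse 2:
DTWGS clone: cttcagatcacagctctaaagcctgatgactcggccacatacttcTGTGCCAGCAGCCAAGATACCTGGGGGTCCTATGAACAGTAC
The largest clonotype of mouse 3, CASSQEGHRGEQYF with TRBJ2-7, was read in the inferior sample only:
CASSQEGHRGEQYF: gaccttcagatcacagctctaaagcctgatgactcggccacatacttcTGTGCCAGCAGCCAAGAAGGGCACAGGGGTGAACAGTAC
The CDR3 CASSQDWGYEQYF with TRBJ2-7 was made in mouse 2 and in mouse 3 from sequences that differ at 1 base:
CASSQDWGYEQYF, mouse 2: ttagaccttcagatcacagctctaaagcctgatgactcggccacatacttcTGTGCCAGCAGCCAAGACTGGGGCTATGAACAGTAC
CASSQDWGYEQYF, mouse 3: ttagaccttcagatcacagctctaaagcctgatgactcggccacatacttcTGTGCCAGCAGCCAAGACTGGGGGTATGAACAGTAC
The CDR3 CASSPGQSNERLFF with TRBJ1-4 was carried by the same 87 bases in mouse 2 and mouse 3:
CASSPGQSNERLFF: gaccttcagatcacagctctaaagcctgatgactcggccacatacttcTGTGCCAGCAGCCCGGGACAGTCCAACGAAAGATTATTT
The CDR3 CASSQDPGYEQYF with TRBJ2-7 was present in mouse 3 in 2 nucleotide forms, also 1 base apart:
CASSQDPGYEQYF, first form: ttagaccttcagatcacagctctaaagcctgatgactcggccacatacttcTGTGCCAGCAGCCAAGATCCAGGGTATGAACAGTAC
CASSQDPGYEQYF, second form: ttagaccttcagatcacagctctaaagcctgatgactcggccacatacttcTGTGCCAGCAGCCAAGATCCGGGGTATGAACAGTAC

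Most TRBV2 CDR3s began with the same residues. The commonest start, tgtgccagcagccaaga (17 bases), was kept whole by 110 of 276 clonotypes (39.9%), and CASSQ opened 208 (75.4%). A clonotype here is 1 V segment joined to 1 J segment through 1 nucleotide sequence of the CDR3 in 1 mouse, with both of its samples pooled unless a sample is named. The start CASSQ was found in 68.3%, 75.6% and 80.2% of the TRBV2 clonotypes of mice 1, 2 and 3. It was also the commonest start of TRBV5 (68.0% of clonotypes), whereas TRBV13-2 most often gave CASGD (55.1%), TRBV3 CASSL (50.0%) and TRBV19 CASSI (45.8%). The sixth residue of TRBV2 CDR3s was aspartate in 25.0%, glutamate in 19.6% and glycine in 17.0%, against 14.3%, 5.34% and 25.2% in other V segments. TRBV2 CDR3s with the whole start averaged 14.5 residues and 3.18 templates (2.78 without the DTWGS clone, which has this start), and the other 166 averaged 14.2 residues and 2.58 templates.

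TRBV2 was a common segment with few distinct clonotypes for its templates. It held 277 of 3816 clonotypes summed over mice (7.26%) and 11.1% of templates. Mice 1, 2 and 3 had 55, 129 and 120 TRBV2 templates in the superior sample, from 28, 47 and 54 clonotypes. They had 138, 123 and 215 in the inferior sample, from 57, 35 and 67 clonotypes. These samples held between 667 and 1855 templates of all segments. The resulting shares of templates, with 95% Wilson intervals, were 8.25% (6.39 to 10.6), 11.8% (10 to 13.8) and 10.6% (8.91 to 12.5) in superior samples. In inferior samples they were 10.1% (8.59 to 11.8), 13.4% (11.3 to 15.7) and 11.6% (10.2 to 13.1). The intervals cover counting error only, since copies made by amplification are not independent molecules.

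Templates per clonotype were higher for TRBV2 than for the pooled other V segments in each of the 6 samples. Superior samples, in the order of mice 1 to 3, gave 1.96, 2.74 and 2.22 templates per TRBV2 clonotype, against 1.57, 1.72 and 1.59 for other V segments. Inferior samples gave 2.42, 3.51 and 3.21, against 1.78, 1.73 and 1.74. Per mouse the values were 2.35, 3.19 and 2.89, or 2.81 ± 0.42 (SD, n = 3), against 1.77 ± 0.04 (n = 3), and the 2 classes did not overlap. Among the 14 V segments with 100 or more clonotypes TRBV2 ranked first at 2.82 templates per clonotype over all mice. TRBV13-2 followed at 2.06, and the 13 others ranged from 1.58 to 2.06 with a median of 1.75. The closest single values were the 2.35 of TRBV2 in mouse 1 and the 2.32 of TRBV13-2 in mouse 2. Without the DTWGS clone, TRBV2 held 2.66 templates per clonotype.

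**Figure D1:**
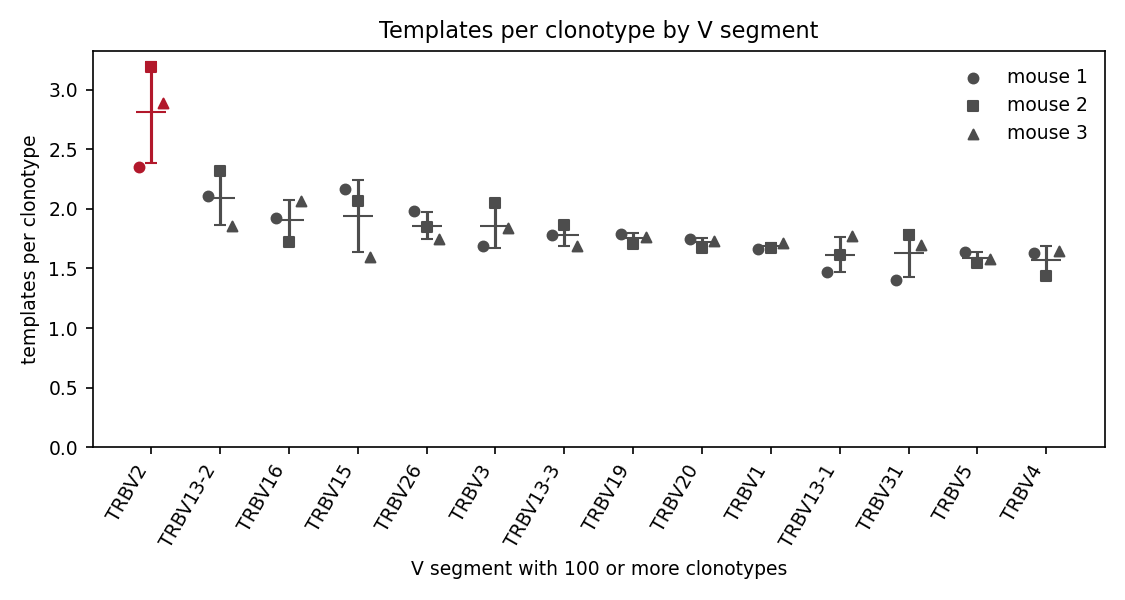
Templates per clonotype (linear axis from 0) for each V segment with 100 or more clonotypes; points are the 3 mice, and the line and bar are their mean and SD. TRBV2 (red) lies at 2.35, 3.19 and 2.89, above the other 13 segments in every mouse.

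The excess lay in middle-sized clonotypes and not only in the largest ones. Clonotypes of 1 template were 42.2% of TRBV2 clonotypes and 58.2% of other clonotypes. Those of 2 templates were also the smaller share in TRBV2, at 16.2% against 24.7%. Those of 3 to 4 templates were 24.2% against 13.5%, and those of 5 to 9 were 15.5% against 3.14%. TRBV2 held 48 of the 176 clonotypes of 5 or more templates (27.3%) and 5 of the 22 of 10 or more (22.7%). In mice 1, 2 and 3, 11, 17 and 20 TRBV2 clonotypes reached 5 templates, or 13.4%, 21.5% and 17.2% of its clonotypes. For other V segments these shares were 3.72%, 3.70% and 3.49%.

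The J segment joined to TRBV2 went with its size. With TRBJ2-7 the TRBV2 clonotypes averaged 5.24 templates (4.45 without the DTWGS clone), and with all other J segments 2.23. Other V segments averaged 2.77 with TRBJ2-7 and 1.52 with the rest. The TRBV2 average with TRBJ2-7 was 4.14, 7.29 and 4.33 in mice 1, 2 and 3, on 7, 17 and 30 clonotypes, against 2.91, 2.78 and 2.66 for other V segments. At the low end, TRBV2 with TRBJ1-1 averaged 1.05 templates over 20 clonotypes, and other V segments 1.11. TRBV2 averaged more templates with 10 of the 12 J segments it joined, the exceptions being TRBJ1-1 and TRBJ2-3 (1.27 against 1.41). Across those 12 J segments the averages of TRBV2 and of other V segments ran in nearly the same order (Spearman's rho 0.93, from the same libraries, given as a description). Weighted to the J use of TRBV2, other V segments would average 1.84.

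The distribution of sizes had a different shape in the TRBV2 clonotypes with TRBJ2-7. Of these 54 clonotypes, 8 had 1 template, 1 had 2, 4 had 3, 17 had 4, 11 had 5 and 8 had 6. The commonest size was thus 4 templates, and 41 (75.9%) held 4 or more. For other V segments with TRBJ2-7 the commonest size was 2 templates (249 of 705), and 126 (17.9%) held 4 or more. For TRBV2 with other J segments it was 1 template (109 of 223), and 39 (17.5%) held 4 or more. For other V segments with other J segments it was again 1 template (1928 of 2834), and 116 (4.09%) held 4 or more.

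**Figure D2:**
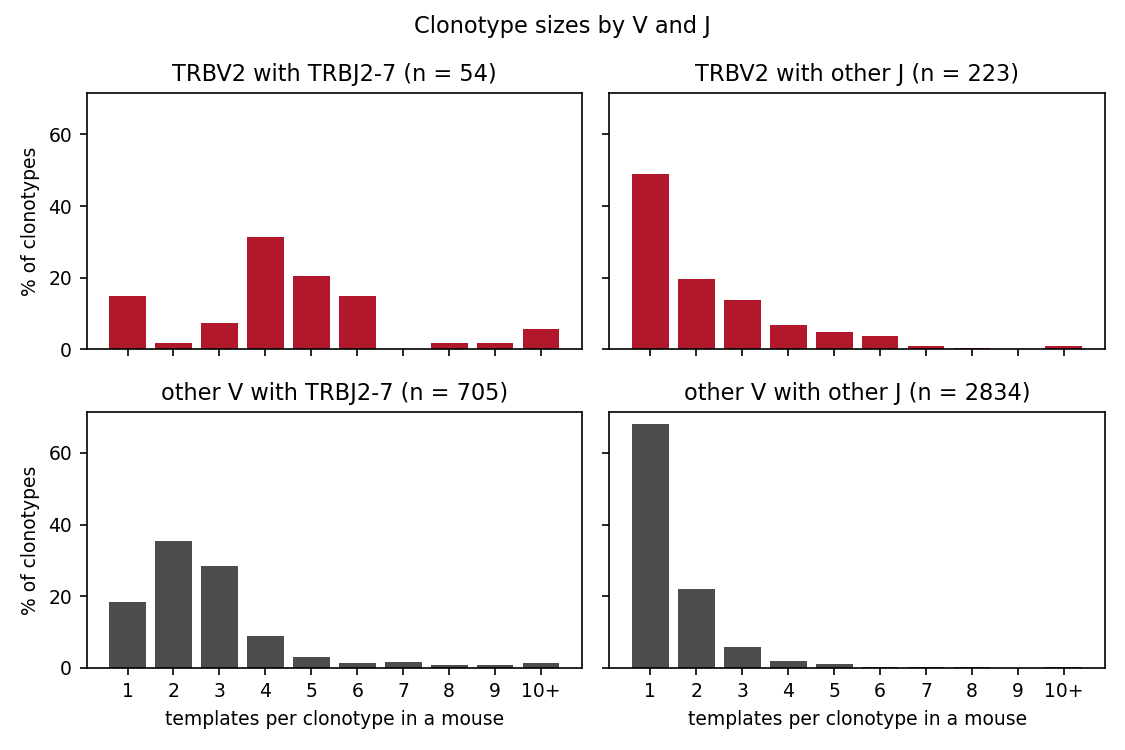
Percent of clonotypes (vertical axis) at each number of templates in a mouse (horizontal axis), for TRBV2 (red, top) and other V segments (grey, bottom), with TRBJ2-7 (left) and other J segments (right). The bars peak at 4 templates for TRBV2 with TRBJ2-7, at 2 for other V segments with TRBJ2-7 and at 1 in both panels without TRBJ2-7.

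Most middle-sized TRBV2 clonotypes were read in 1 of the 2 samples of their mouse. Of the 43 TRBV2 clonotypes of 5 to 9 templates, 2 were found in both samples (4.65%, Wilson interval 1.28 to 15.5), and the other 41 in the superior sample only (13) or the inferior sample only (28). Of the 111 such clonotypes of other V segments, 38 were found in both (34.2%, 26.1 to 43.5), 31 in the superior sample only and 42 in the inferior sample only. The inferior sample was the deeper one in mice 1 and 3. In mice 1, 2 and 3 the counts were 1 of 10, 1 of 15 and 0 of 18 for TRBV2, and 8 of 30, 15 of 30 and 15 of 51 for other V segments. The share was lower for TRBV2 in each of the 3 mice, by 29.8 percentage points on average. This size class is cut by the template counts that chose the segment and was singled out after its values were seen, so it is a description with no test. The Wilson intervals cover counting error over clonotypes pooled across mice. They do not measure the spread between mice and are no test of the 2 classes. TRBV2 clonotypes were the smaller ones within it, 38 of 43 having 5 or 6 templates against 72 of 111. Of those with 5 or 6 templates, 1 of 38 from TRBV2 (2.63%) and 22 of 72 from other V segments (30.6%) were found in both samples, and of those with 7 to 9, 1 of 5 and 16 of 39. Among clonotypes of 2 to 4 templates the shares were nearer, at 6 of 112 (5.36%) and 95 of 1353 (7.02%). Of the 21 with TRBJ2-7 in TRBV2, 0 were found in both samples (Wilson interval up to 15.5%), and of the 22 with other J segments 2 were, against 12 of 55 and 26 of 56 for other V segments. Single segments gave 7 of 23 for TRBV13-2, 6 of 16 for TRBV3, 3 of 13 for TRBV19 and 4 of 7 for TRBV5.

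**Figure D3:**
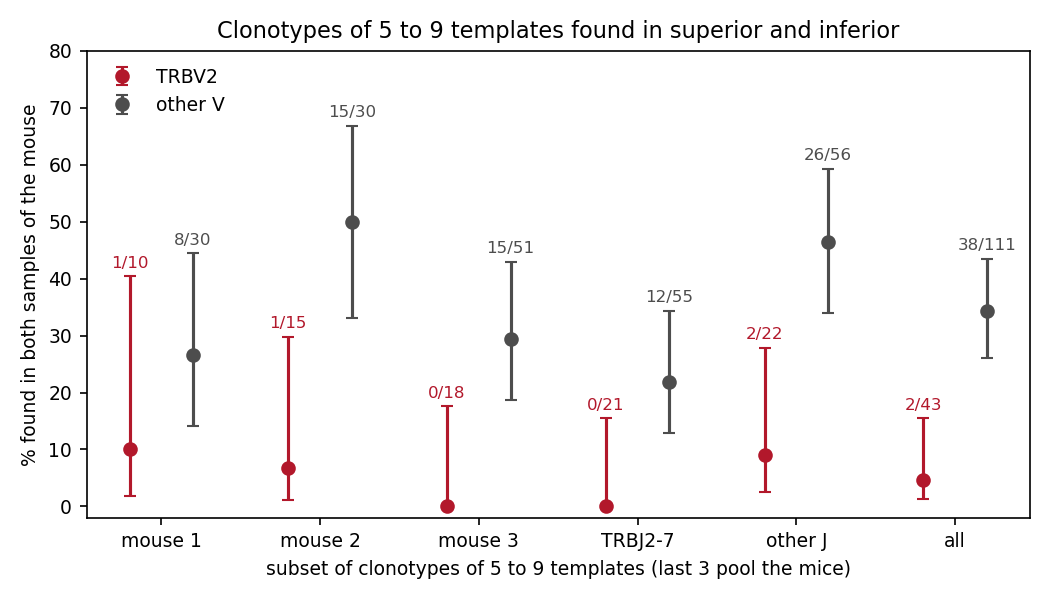
Percent of clonotypes of 5 to 9 templates found in both samples of their mouse (vertical axis), for TRBV2 (red) and other V segments (grey), by mouse, by J class and in all; bars are 95% Wilson intervals and the counts stand above them. TRBV2 lies below other V segments in each of the 3 mice, with 2 of 43 against 38 of 111 in all. The intervals cover counting error only and are not a test.

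Over all sizes the shares found in both samples differed by less than the spread between mice. They were 3 of 82 (3.66%), 3 of 79 (3.80%) and 5 of 116 (4.31%) TRBV2 clonotypes in mice 1, 2 and 3, against 3.25%, 5.25% and 4.01% for other V segments. TRBV2 was lower in mouse 2 alone, and the mean difference, TRBV2 minus other V segments, was -0.25 percentage points (exact sign-flip p = 1). It was 0.35 without mouse 2, and 0.22 with listed rearrangements in place of clonotypes. Of the 5 TRBV2 clonotypes of 10 or more templates 3 were in both samples, and of the 17 of other V segments 13 were.

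Those 5 clonotypes differed in how they were spread over the samples. The DTWGS clone in mouse 2 held 11 superior and 36 inferior templates, or 1.005% (0.562 to 1.79) and 3.91% (2.84 to 5.37) of all templates there. Fisher's exact test within the mouse gave an adjusted p of 0.00102, which compares these libraries and not the conditions. The clone made up 29.3% of the TRBV2 templates of the inferior sample. A second TRBJ2-7 clonotype of mouse 2, the HPGLGP clone (residues 5 to 10 of 15), held 11 superior and 3 inferior templates (adjusted p = 0.148 by Fisher's exact test).

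In mouse 3 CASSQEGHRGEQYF was read 0 times in the superior and 12 times in the inferior sample (adjusted p = 0.0319 by Fisher's exact test), where 0 templates allow a share of up to 0.264%. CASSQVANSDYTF with TRBJ1-2 held 2 and 9 templates there. In mouse 1 the largest TRBV2 clonotype, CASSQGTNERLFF with TRBJ1-4, held 0 superior and 11 inferior templates, followed by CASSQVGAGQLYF with TRBJ2-2 (3 and 5) and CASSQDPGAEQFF with TRBJ2-1 (0 and 7). Just under the limit of 10 stood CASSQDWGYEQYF, with 9 templates in mouse 3. The 5 largest thus joined TRBJ2-7 in 3 cases, TRBJ1-4 in 1 and TRBJ1-2 in 1, and 4 of them held more templates in the inferior than in the superior sample. These are counts not scaled for depth, and the inferior sample was the deeper one in mice 1 and 3 (1370 against 667 and 1855 against 1136 templates).

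Fisher's exact test was applied to every clonotype of 5 or more templates summed over both samples, with adjustment within each mouse. Over all V segments 18% of 50, 22.6% of 53 and 24.7% of 73 clonotypes were called in mice 1, 2 and 3. For TRBV2 the counts were 2 of 11, 6 of 17 and 5 of 20, and for other V segments 7 of 39, 6 of 36 and 13 of 53. In mouse 1 both TRBV2 calls were higher in the superior sample, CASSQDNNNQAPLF with TRBJ1-5 and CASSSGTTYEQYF with TRBJ2-7, each with 5 templates there and 0 in the inferior sample. In mouse 2 all 6 TRBV2 calls were higher in the inferior sample, while 5 of the 6 calls of other V segments were higher in the superior sample. In mouse 3, 4 TRBV2 calls were higher in the superior sample, each with 5 against 0 templates, and 1 in the inferior sample. The shallower sample of a mouse needs fewer templates for a call: in mouse 3, 5 against 0 passed in the superior and 9 against 0 did not in the inferior sample. Amplified copies of 1 molecule would count as separate templates in this test, and their part in these calls was not tested.

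TRBV2 was shared between mice at low frequency. With clonotypes defined by CDR3 residues in place of bases, 4 of 271 from TRBV2 (1.48%) were found in 2 mice and none in 3, against 26 of 3480 (0.747%) found in 2 or more mice for other V segments. At the nucleotide level these were 2 of 275 and 7 of 3532. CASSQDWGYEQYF, shown above, held 8 templates in mouse 2 and 9 in mouse 3, all in inferior samples, which makes it the largest of the 4. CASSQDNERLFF with TRBJ1-4 held 3 templates in mouse 1 and 6 in mouse 3, all inferior, with the same CDR3 bases. In mouse 1 it was listed in 2 forms, and the form compared differed from the mouse 3 sequence at 1 base before the CDR3. The other form was not compared. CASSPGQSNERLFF held 2 superior templates in mouse 2 and 5 inferior ones in mouse 3. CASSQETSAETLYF with TRBJ2-3 held 3 superior and 3 inferior templates in mice 2 and 3, with 3 bases of 87 differing. Both forms of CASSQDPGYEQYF in mouse 3 held 6 templates, all in the inferior sample.

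J pairing, counted over clonotypes so that a large clone counts once, was compared between TRBV2 and other V segments with edgeR's quasi-likelihood test and the mouse as a block. One of 12 J segments passed an adjusted p of 0.05, which is 8.33% of those tested. TRBJ2-5 was less frequent with TRBV2, at 8.54%, 5.06% and 6.90% of its clonotypes in mice 1, 2 and 3, against 13.9%, 12.6% and 14.6% in other V segments. The 2 classes did not overlap, which was not particular to TRBJ2-5. They also did not overlap for TRBJ1-4 and TRBJ1-5, more frequent with TRBV2 and not called (edgeR adjusted p = 0.398 for each). For TRBJ2-5 the log2 difference was -1.01 (SE 0.34, edgeR adjusted p = 0.0183, lower in 3 of 3 mice). The call rested on all 3 mice together: without mouse 1, 2 or 3 the edgeR adjusted p was 0.0753, 0.192 and 0.206. It was also lost with DESeq2 (adjusted p = 0.545) and with templates counted in place of clonotypes (edgeR adjusted p = 0.0608).

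The J segments that TRBV2 joined most often were TRBJ2-7, TRBJ2-1 and TRBJ2-3, and none of the 3 passed the test. TRBJ2-7 made up 8.54%, 21.5% and 25.9% of TRBV2 clonotypes in mice 1, 2 and 3, against 20.7%, 22.9% and 17.5% in other V segments. Mouse 1 was low and mouse 3 high for TRBV2, and the log2 difference of -0.07 (edgeR adjusted p = 0.854) turned to 0.29 without mouse 1. TRBJ2-1 made up 18.3%, 11.4% and 7.76% of TRBV2 clonotypes, against 10.4%, 8.86% and 9.16% (edgeR adjusted p = 0.398). TRBJ2-3 made up 12.2%, 10.1% and 6.90%, against 7.46%, 7.0% and 6.92% (edgeR adjusted p = 0.398), and its log2 difference of 0.41 turned to -0.38 with templates counted. By templates TRBJ2-7 held 36.3% of TRBV2. The J use of TRBV2 was nearest to that of TRBV26, TRBV1 and TRBV3, at Jensen-Shannon distances of 0.13, 0.14 and 0.14 over pooled clonotypes (median of the 13 segments 0.15, highest 0.24).

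**Figure D4:**
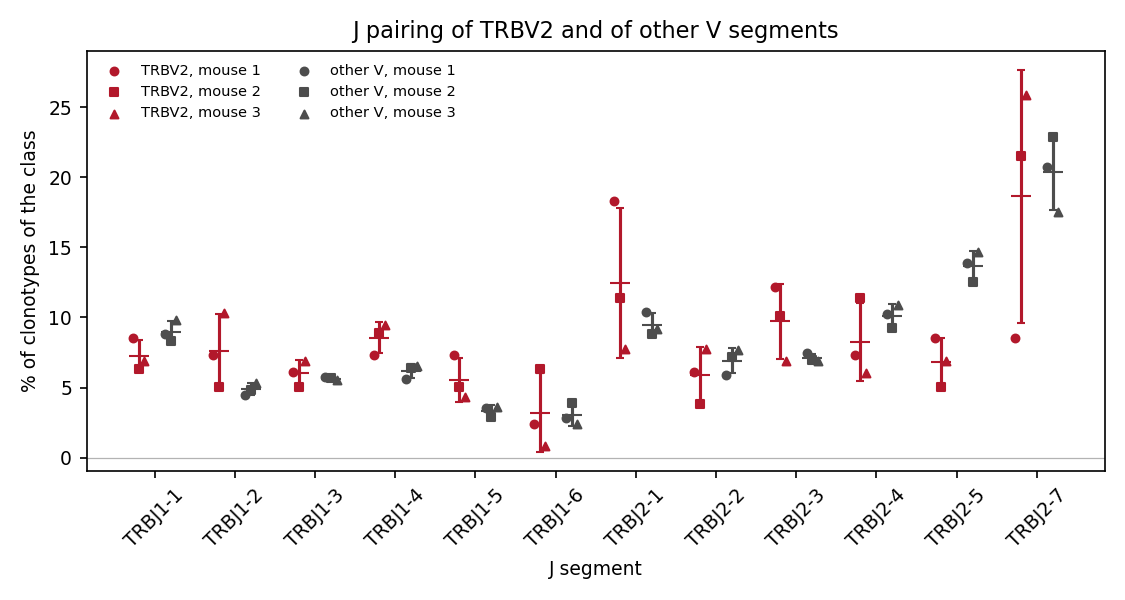
Percent of clonotypes (vertical axis) joined to each J segment (horizontal axis) for TRBV2 (red) and other V segments (grey); points are the 3 mice, lines and bars the mean and SD. The red points lie below the grey ones in every mouse at TRBJ2-5, and spread from 8.54% to 25.9% at TRBJ2-7.

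No difference in D calls between TRBV2 and other V segments passed a test. TRBD1 lies upstream of both J clusters and TRBD2 between them, so the choice of D is open mainly for the TRBJ2 cluster. Among TRBV2 clonotypes with a TRBJ2 segment and a called D, TRBD1 was called in 18 of 44 (40.9%), 11 of 39 (28.2%) and 25 of 61 (41.0%) in mice 1, 2 and 3. Other V segments gave 37.1%, 38.6% and 41.4%. The mean difference of -2.35 percentage points (exact sign-flip p = 0.75, lower in 2 of 3 mice) was 1.69 without mouse 2. With TRBJ1 segments, TRBD1 was called in 75 TRBV2 clonotypes and TRBD2 in 4 (5.06%), against 8.34% TRBD2 calls in other V segments. TRBD2 cannot join TRBJ1 by deletion, and the accuracy of the D calls was not tested, with either J cluster. D was not called in 15.9%, 21.5% and 20.7% of TRBV2 clonotypes.

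TRBV2 CDR3s were long on average, though no single length passed the main test, over all J segments with the 3 mice as blocks. The mean length over clonotypes was 14.5, 14.5 and 14.1 residues in mice 1, 2 and 3, or 14.35 ± 0.25 (SD, n = 3), against 13.77 ± 0.03 in other V segments. TRBV2 ranked second of the 14 V segments at 14.31 residues, after TRBV5 at 14.34 and before TRBV1 at 14.18. By sample, TRBV2 was the longer in 5 of 6, the exception being the inferior sample of mouse 3 (13.84 against 13.86). In the main edgeR fit, over all J segments with the mouse as a block, 0 of 9 lengths passed an adjusted p of 0.05 (0%). An unadjusted p under 0.05 was found for 4.

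Those 4 were lengths 15 and 16, more frequent in TRBV2, and 11 and 12, less frequent. Length 15 made up 35.4%, 34.6% and 27.6% of TRBV2 clonotypes in mice 1, 2 and 3, against 18.7%, 19.8% and 19.7% (log2 difference 0.72, SE 0.23, edgeR adjusted p = 0.0601). Length 16 made up 12.8% ± 3.7 against 7.38% ± 0.38 (SD, n = 3 each). Length 12 made up 5.24% ± 3.7 against 11.02% ± 1.1, and length 11 made up 1.56% ± 1.7 against 5.20% ± 0.54. In other edgeR fits some lengths passed. With the 6 samples as blocks these were 3 (11, 12 and 15, with length 15 at an adjusted p of 0.0224). That fit treats the 2 samples of a mouse as separate replicates, which they are not. With no block 4 passed (11, 12, 15 and 16). Without TRBJ2-7, and with the mouse as a block, 3 passed (13, 15 and 16, with length 15 at an adjusted p of 0.00667).

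**Figure D5:**
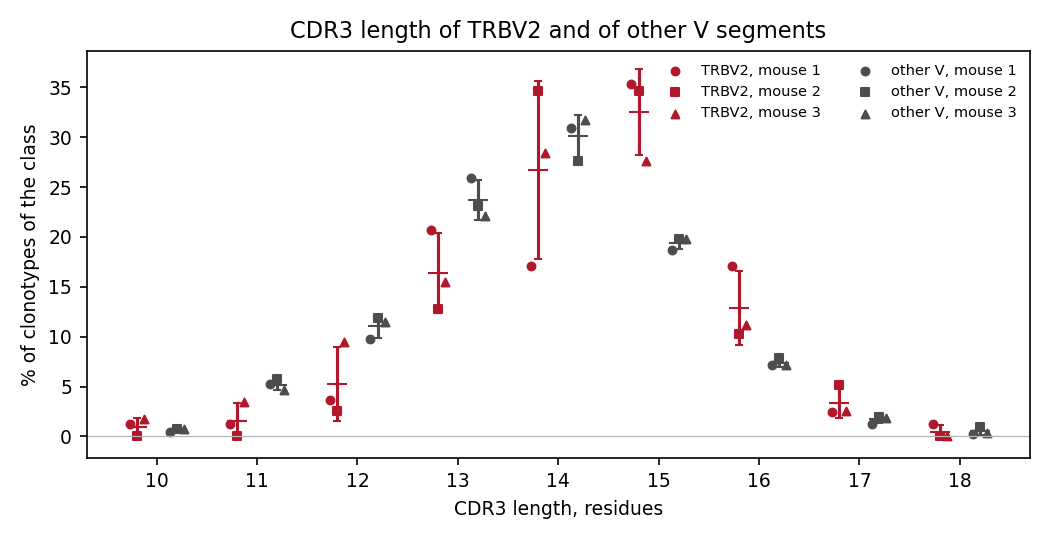
Percent of clonotypes (vertical axis) at each CDR3 length in residues (horizontal axis) for TRBV2 (red) and other V segments (grey); points are the 3 mice, lines and bars the mean and SD. At 15 residues the TRBV2 mice lie between 27.6% and 35.4% and the other V segments between 18.7% and 19.8%.

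Inner CDR3 residues, from position 7 to 6 before the last so that most V- and J-encoded residues are left out, showed no called difference. Of 18 residues 0 passed an edgeR adjusted p of 0.05 (0%), 0 had an unadjusted p under 0.05, and DESeq2 also called 0. Glycine was the commonest, at 40.2%, 47.2% and 40.1% of inner TRBV2 residues in mice 1, 2 and 3, against 41.9%, 39.8% and 41.0%. Threonine made up 8.06% ± 1.5 against 5.92% ± 0.95, and serine 8.48% ± 1.9 against 10.1% ± 0.47 (SD, n = 3 each). Lysine was found at 0 of the 648 inner residues of TRBV2, which allows a share of up to 0.463%. It made up 0.481% of those of other V segments, and the difference was not called (edgeR adjusted p = 0.531). With position 6 included, glutamate alone passed (log2 difference 1.40, edgeR adjusted p = 0.000346). The commonest TRBV2 start, of 17 bases, reaches into the codon of position 6, and its part in this call was not tested. From position 7 on, glutamate was found at 2 of the 648 residues, with a log2 difference of -1.40 (edgeR adjusted p = 0.531).

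Between superior and inferior samples, no difference of TRBV2 passed a test. Of all templates it took the smaller share in superior samples, in 3 of 3 mice, at 10.2% ± 1.8 against 11.7% ± 1.7 (SD, n = 3 each). The log2 difference, superior over inferior, was -0.17 (SE 0.20, edgeR adjusted p = 0.852), and 0 of 23 V segments passed (0%), with 1 at an unadjusted p under 0.05 and 0 by DESeq2. Counted by clonotypes the sign turned, to 0.09. Templates per TRBV2 clonotype were lower in the superior sample of each mouse, at 2.31 ± 0.40 against 3.05 ± 0.56 (n = 3 each). That difference of -0.74 had a two-sided exact permutation p of 0.2, where 3 against 3 cannot go below 0.1. With the samples paired by mouse the exact p was 0.25, the lowest that 3 mice allow. The superior sample was the shallower one in mice 1 and 3, and at an equal depth of 667 templates the mean difference was -0.25 (exact p = 0.8), with 0.23, -0.92 and -0.06 in mice 1, 2 and 3, so that mouse 1 was no longer lower in the superior sample. It was -0.44 without the largest TRBV2 clonotype of each sample (exact p = 0.3), and in mouse 2 it was then 0.01. Within TRBV2, 0 of 11 J segments passed in edgeR (0%), 0 had an unadjusted p under 0.05, and DESeq2 called 0. The differences between TRBV2 and other V segments in J use, length and inner residues were also tested for a change between superior and inferior samples, and 0 of 12, 0 of 9 and 0 of 18 features passed in edgeR, with 0, 2 and 1 at an unadjusted p under 0.05.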

How the data were processed

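The deposited count per rearrangement is a whole number, called templates here, and the deposited productive frequency is a fraction that the authors' files give as count over sample sum. The submitters' processing notes name mm10 as the build; for the aligner, the caller and any filter nothing is given in the sources used here. All 43 V and J names matched RefSeq symbols of GRCm38.p6. Listed rearrangements with the same V segment, CDR3 bases and J segment were merged. CDR3s not starting with cysteine (1 TRBV2 clonotype) were left out of length and residue counts.

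Feature counts per mouse and V class were fitted with edgeR 4.0.16 in R 4.3.3 (quasi-likelihood test, common dispersion, class totals as library sizes, features of 10 or more, Benjamini-Hochberg adjustment at 0.05) with the mouse as a block. DESeq2 1.42.0 was an alternative. Superior and inferior samples were compared without the block, and single values with two-sided exact permutation or sign-flip tests. Standard errors come from the fitted information and are never under the counting error. The rest was done in Python 3.11.15 (scipy 1.17.1, pandas 2.3.3, numpy 2.4.6).

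Samples were paired by the number in their titles, since a pair comes from the same animal. Deviations from group means over V segments, in percent of templates, correlated at 0.07, 0.67 and -0.35 within mice 1, 2 and 3. The 3 mice are the replicates. Fisher's exact test compares the 2 libraries of 1 mouse, and its p-values measure no spread between mice. Tests of superior against inferior samples left out the pairing and measure the spread between samples. The p-values of the main tests of TRBV2 against other V segments measure the spread between mice.

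Members, lists and most rules were chosen with earlier results of these data known. Named are J segments past the threshold and the 3 commonest, lengths and residues past it, clonotypes with at least 10 templates in their mouse, the 3 largest per mouse, and those in 2 or more mice, with TRBV13-2, TRBV3, TRBV19 and TRBV5 as comparators. J segments, lengths, residues and clonotypes named beyond this were chosen after their values were seen.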

Additional observations from a re-analysis of the deposited data

How the results depend on the processing

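Several calls depended on a setting, and the causes were not tested. The J use count of 1 became 0 with templates counted, with DESeq2 and without each mouse (0 to 0), and stayed at 1 in the other 5 alternatives. TRBJ2-5 kept a lower share in all 10 alternatives, from -1.41 to -0.91 on the log2 scale. For CDR3 length the count of 0 became 4 with no replicate block and 3 without TRBJ2-7. It became 3 with the 6 samples as blocks, though the 2 samples of a mouse are not independent animals. Inner residues gave 1 call from CDR3 position 6 and 0 in the other alternatives. The TRBV2 share of templates, superior over inferior, turned from -0.17 to 0.086 with clonotypes counted; it was -0.20 with the replicate block, which changed no call between superior and inferior samples. The difference in TRBD1 use turned to 2.40 over all J segments and ranged from -5.45 to 1.69 without each mouse. The difference in clonotypes found in both samples turned to 0.98 for clonotypes of 1 template and to 0.22 for listed rearrangements, and ranged from -0.58 to 0.35 without each mouse. For clonotypes of 5 to 9 templates it stayed below 0 in all 9 alternatives, chosen after seeing the data, from -41.8 to -18.5 percentage points. These alternatives reuse largely the same clonotypes of the same mice, so their agreement is no separate support. For TRBJ2-7 the log2 difference ranged from -0.55 to 0.29 without each mouse, and for TRBJ2-3 it turned to -0.38 with templates counted.

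Depth limits these results: 667 to 1855 templates per sample leave 7 to 30 TRBV2 clonotypes with TRBJ2-7 per mouse, and a clonotype read 0 times in a sample may hold up to 0.162% to 0.450% of it. Tests over 3 mice cannot fall below 0.25, and 3 against 3 samples not below 0.1.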

Other observations

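Listed rearrangements that shared the V segment, CDR3 bases and J segment within a sample were already merged, which took 309 TRBV2 entries to 288 and 4100 others to 3685. Beyond that, merging each clonotype that lay 1 CDR3 base from a larger one of the same V segment, J segment and mouse removed 4 of 277 TRBV2 clonotypes (1.44%) and 38 of 3539 others (1.07%), an alternative chosen after seeing the data. The 5 clonotypes of 10 or more templates kept their sizes, 47 for the DTWGS clone and 11 to 14 for the rest, and TRBV2 then held 2.86 templates per clonotype against 1.79.

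TRBJ2-7 clonotypes were also the larger ones in each comparator V segment. They averaged 3.36 templates in TRBV13-2 (89 clonotypes), 2.96 in TRBV3 (80), 2.69 in TRBV19 (84) and 2.55 in TRBV5 (62), against 5.24 in TRBV2 (54).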
